A study of Homo sapiens with 20 samples.

Results

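The let-7 family guide strands are the 9 mature microRNAs (miRNAs) let-7a-5p, let-7b-5p, let-7c-5p, let-7d-5p, let-7e-5p, let-7f-5p, let-7g-5p, let-7i-5p and miR-98-5p. They were found by name among the 2588 mature miRNAs counted, and all 9 passed the filter on low counts in every fit. The study counted small RNA reads in 20 libraries from 2 human cell lines, HCT116 (colon cancer) and HEK293E (embryonic kidney). Its question, from the series title, is what the proline-rich disordered domain of DROSHA does when the enzyme processes intronic miRNAs. DROSHA is the nuclear enzyme that cuts miRNA hairpins out of their primary transcripts, and DROSHA-p140 is a shorter form of it. HEK293E cells with DROSHA knocked out were given p140 or full-length DROSHA (3 libraries each), and so were HCT116 cells with DROSHA knocked out (3 libraries each). A further library came from HCT116 knockout cells given GFP and another from untreated wild-type HCT116 cells. Wild-type HCT116 cells were also grown for 72 hr in 0.1% or in 9.1% fetal bovine serum, FBS (3 libraries each). All rescued cells therefore carry the knockout, with p140 and with full-length DROSHA alike. The sources used here do not say whether the knockout lines are single clones or how the rescue constructs are driven.

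The let-7 family is among the most conserved miRNA families of animals, and its members repress growth-promoting genes such as RAS, HMGA2, MYC and LIN28. Each guide is cut from the 5′ arm of a hairpin, first by DROSHA in the nucleus and then by DICER in the cytoplasm, and the other arm of the hairpin, the passenger strand, is mostly degraded. Maturation of let-7 precursors is also blocked by LIN28 proteins, and differentiated cells generally hold more let-7 than stem cells.

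The 9 guide sequences are shown because the members are told apart by few bases, which bears on every value below. They were read from RefSeq (GRCh38.p14), which matched all 9 members, with the seed (bases 2 to 8, counted from the 5′ end) in capitals.
let-7a-5p: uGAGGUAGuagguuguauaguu
let-7b-5p: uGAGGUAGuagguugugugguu
let-7c-5p: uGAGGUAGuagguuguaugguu
let-7d-5p: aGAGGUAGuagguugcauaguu
let-7e-5p: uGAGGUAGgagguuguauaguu
let-7f-5p: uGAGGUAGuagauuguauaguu
let-7g-5p: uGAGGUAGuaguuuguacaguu
let-7i-5p: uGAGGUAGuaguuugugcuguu
miR-98-5p: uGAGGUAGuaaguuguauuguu
All 9 were 22 bases long and shared 1 seed, which 11 mature miRNAs of the RefSeq table hold. Relative to let-7a-5p, with let-7a-5p's base given first, let-7c-5p differed by A19G, let-7e-5p by U9G and let-7f-5p by G12A. The other members differed from let-7a-5p at more positions, namely A17G and A19G in let-7b-5p, U1A and U16C in let-7d-5p, G12U and U18C in let-7g-5p, and G11A and A19U in miR-98-5p. let-7i-5p was the most distant, with G12U, A17G, U18C and A19U, and 81.8% identity to let-7a-5p. Of the 36 pairs of members 4 differed at 1 base, so a misread base or a mapping that tolerates a mismatch could move reads between them, and the sources used here give no mapping rule.

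The members come from 12 hairpins, placed on hg38 with GENCODE 29 gene models. let-7a-1 (chr9:94175962-94176033), let-7f-1 (chr9:94176353-94176430) and let-7d (chr9:94178841-94178916) lie on the plus strand in an intron of the noncoding gene AL158152.2. let-7f-2 (chrX:53557196-53557267) and mir-98 (chrX:53556241-53556320) lie on the minus strand in an intron of HUWE1, which encodes a ubiquitin ligase. let-7a-3 (chr22:46112752-46112820) and let-7b (chr22:46113691-46113766), on the plus strand, overlap an exon of the noncoding gene MIRLET7BHG, and they were the only 2 hairpins of the 12 outside an intron. let-7g (chr3:52268280-52268357, minus strand) lies in an intron of WDR82, and let-7i (chr12:62603691-62603768, plus strand) in an intron of the noncoding gene AC048341.1. let-7e (chr19:51692793-51692859, plus strand) lies in an intron of SPACA6, 175 bases from mir-99b and 475 from mir-125a. let-7c (chr21:16539838-16539904, plus strand) lies in an intron of MIR99AHG, 737 bases from mir-99a, and let-7a-2 (chr11:122146523-122146589, minus strand) in an intron of MIR100HG, 5707 bases from mir-100. let-7a-5p is listed under its 3 hairpins and let-7f-5p under its 2, with nearly equal counts. The lowest copy held 99.6% of the highest for let-7a-5p and 98.6% for let-7f-5p, so the copies appear to hold the same reads and these guides cannot be assigned to a hairpin.

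The libraries held between 38288 reads (HCT116 knockout with GFP) and 2822317 reads (HCT116 in 0.1% FBS), and the family between 520 and 256001 of them. Replicates differed beyond counting noise in every group, and replicate 3 stood apart from the others in both rescued HCT116 groups and in both serum groups. The labels do not say whether replicates were separate cultures, so p-values measure the spread between these libraries, which may be technical. The small RNA counts do not measure DROSHA itself. As a check of the knockout, a list of 22 miRNAs reported to be made without DROSHA, such as miR-320a and miR-484, made up 69.7% of the reads of the knockout with GFP, against 1.27% in untreated wild type. Levels are given as CPM, counts scaled to 1000000 reads of a library. miR-320a alone had 611575 of the list's 697320 CPM in the knockout, and 11889 of its 12658 CPM in untreated wild type. It held most of the list's reads in every library, so a scale set by the list's summed reads rests mainly on miR-320a. Of 5 miRNAs listed as colon epithelial markers, the summed level was 260.5 to 352 CPM in HCT116 with p140 and 448 to 487 CPM with full-length DROSHA. It was 30574 to 38467 CPM in the 7 wild-type HCT116 libraries, 4100.5 CPM in the knockout with GFP and 427 to 605 CPM in HEK293E. The rescued HCT116 libraries lacked most of the miR-200c-3p and miR-141-3p that lead this list in wild type, and miR-215-5p of the list was at or near 0 in every HCT116 library. With full-length DROSHA miR-194-5p had 149 to 188 CPM, against 96.8 to 130 CPM in wild type in 9.1% FBS. miR-192-5p overlapped there, with 36.6 to 65.4 CPM, against 49.7 to 59.7 CPM. In 0.1% FBS miR-194-5p had 348 to 370 CPM and miR-192-5p 116 to 122 CPM. No defining miRNA was listed for HEK293E.

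The family held a larger share of the miRNA reads in HCT116 than in HEK293E. In bulk RNA, fewer cells of a kind and less RNA per cell cannot be told apart. It took 3.02 to 3.65% of reads in HEK293E with p140 and 2.61 to 3.32% with full-length DROSHA. In HCT116 it took 6.68 to 7.32% with p140 and 6.98 to 8.22% with full-length DROSHA. The knockout with GFP had 1.36%, against 9.16% in untreated wild type, and the serum libraries had 9.07 to 10.3% in 0.1% FBS and 8.51 to 8.95% in 9.1% FBS.

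let-7a-5p was the most abundant member in all 8 groups. Its mean level was 15685 ± 1606 CPM in HEK293E with p140 and 13073 ± 1733 CPM with full-length DROSHA, 31225 ± 1564 CPM in HCT116 with p140 and 24749 ± 2448 CPM with full-length DROSHA (SD, n = 3 each). In wild-type HCT116 it was 39678 ± 3056 CPM in 0.1% FBS and 32247 ± 1603 CPM in 9.1% FBS (SD, n = 3 each), and the single libraries had 5459 CPM in the knockout with GFP and 35679 CPM in untreated wild type. Below let-7a-5p the order differed by line. In HEK293E with full-length DROSHA it ran let-7f-5p (5157 CPM), let-7c-5p (3203), let-7g-5p (3067), let-7e-5p (2581), let-7b-5p (1491), let-7i-5p (857), let-7d-5p (395) and miR-98-5p (132). The libraries of let-7c-5p overlapped those of let-7g-5p, and those of let-7g-5p overlapped those of let-7e-5p. In HCT116 with full-length DROSHA it ran let-7i-5p (15190.0 CPM), let-7f-5p (13849), let-7g-5p (6341), let-7b-5p (5597), let-7d-5p (5512), miR-98-5p (2310.2), let-7e-5p (1937) and let-7c-5p (153). There the libraries overlapped between let-7i-5p and let-7f-5p, let-7g-5p and let-7b-5p, let-7b-5p and let-7d-5p, and miR-98-5p and let-7e-5p. In wild-type HCT116 cells let-7f-5p was second, at 16560.2 CPM in 0.1% FBS and 17059 CPM in 9.1% FBS. All members are 22 bases long, so levels are compared at equal length, but adaptor ligation also depends on sequence and its part in the order was not tested.

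**Figure D1:**
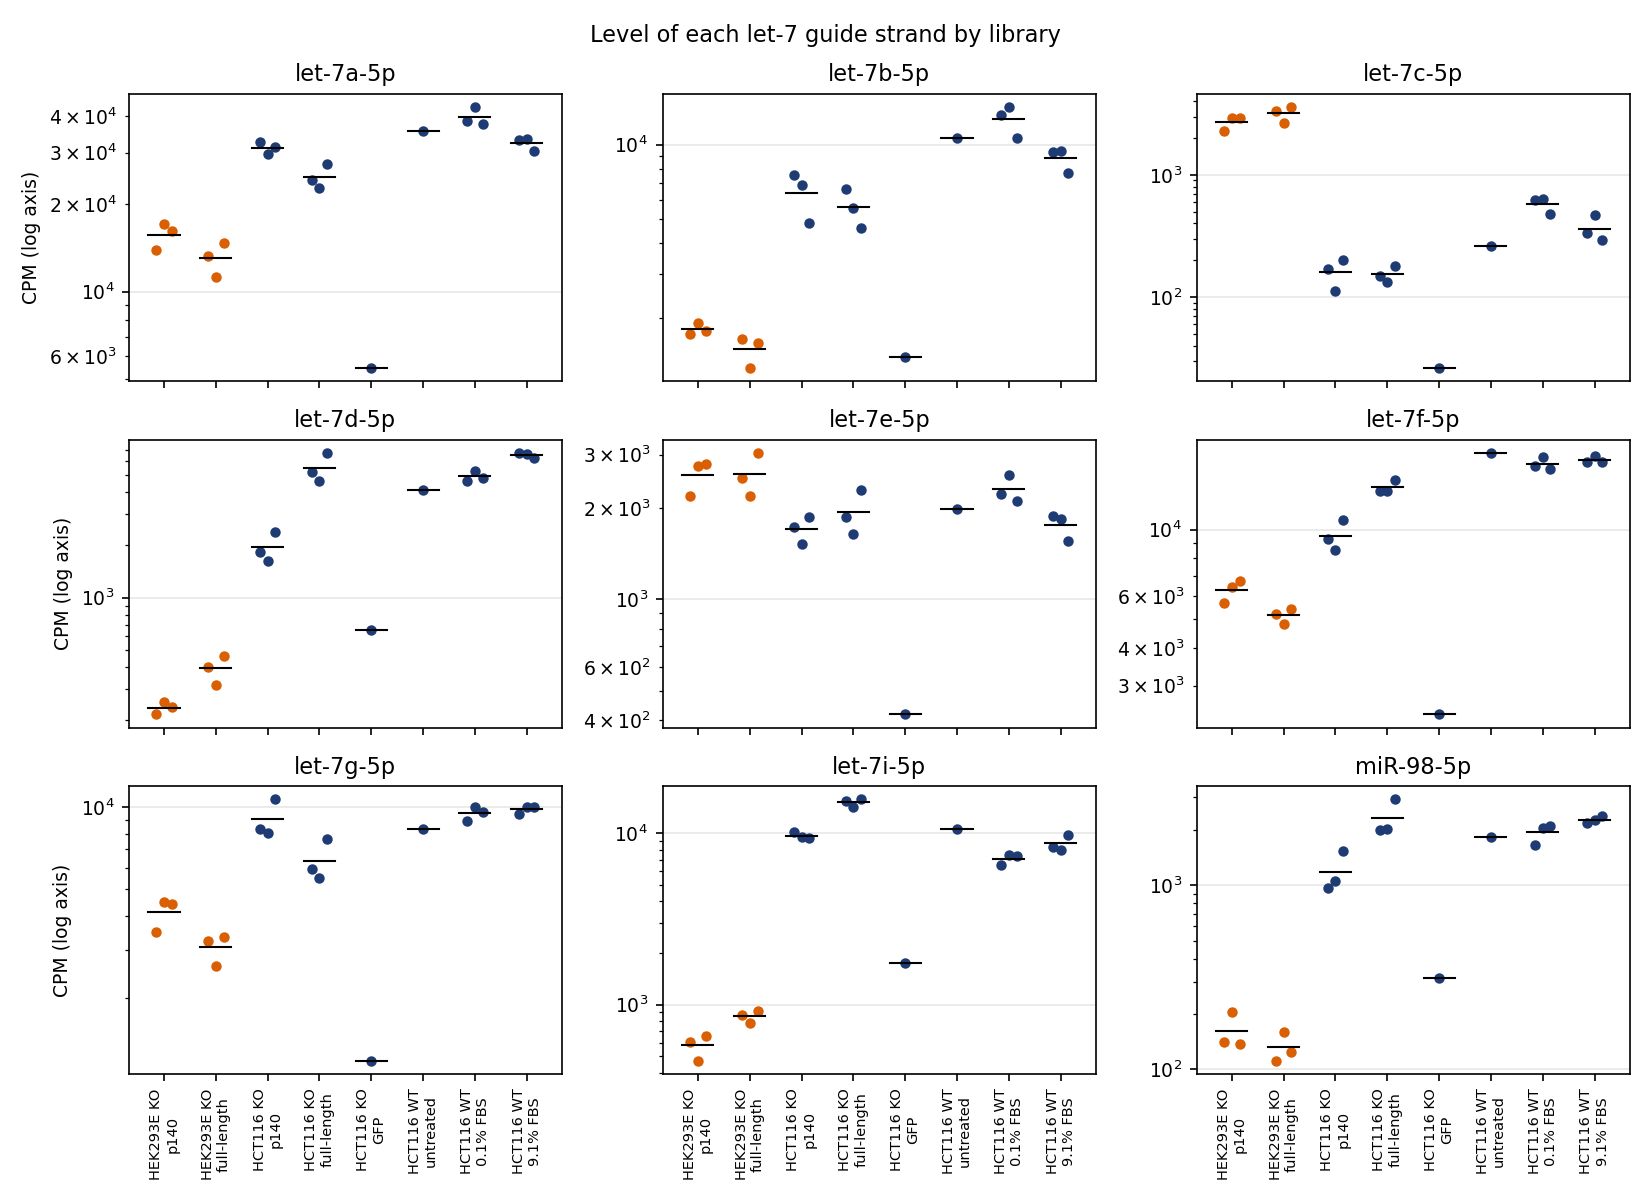
Level of each of the 9 guide strands in every library (CPM, log axis; points are libraries, bars are group means; HEK293E in orange, HCT116 in blue). let-7c-5p is the member that stands higher in all HEK293E libraries than in all HCT116 ones, let-7e-5p overlaps between the lines with full-length DROSHA, and every member is lowest among the HCT116 groups in the knockout with GFP.

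By a root mean square difference over the 8 group means of log2(CPM + 1), each centred on its own mean, the patterns nearest to the summed family among 252 other miRNAs were those of miR-24-3p (0.35), miR-125b-5p (0.40), miR-222-3p (0.43), miR-151a-3p (0.52) and miR-153-3p (0.58). The median difference over the 252 was 1.61. Members and their passenger strands were left out of the 252, but miRNAs of the same primary transcripts were not. For single members the nearest were miR-101-3p for let-7e-5p (0.18), miR-24-3p for let-7g-5p (0.26) and let-7a-5p (0.36), miR-27a-3p for let-7b-5p (0.33), miR-125b-5p for let-7f-5p (0.37), miR-29a-3p for let-7i-5p (0.38), miR-24-2-5p for miR-98-5p (0.42), miR-31-5p for let-7d-5p (0.60) and miR-15b-5p for let-7c-5p (0.83). These describe 8 points that share libraries and totals.

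The make-up of the family, which does not depend on how libraries are scaled, set the lines apart. let-7c-5p held 7.52 to 8.20% of family reads in HEK293E with p140 and 10.2 to 10.9% with full-length DROSHA, against 0.166 to 0.276% and 0.190 to 0.216% in HCT116 with the same forms. let-7e-5p held 7.27 to 7.79% and 8.22 to 9.14% in HEK293E, against 2.28 to 2.55% and 2.36 to 2.80% in HCT116. let-7i-5p was the reverse, with 1.29 to 2.01% and 2.76 to 3.0% in HEK293E, against 12.9 to 14.3% and 19.2 to 20.6% in HCT116. let-7d-5p held 0.659 to 0.710% and 1.22 to 1.40% in HEK293E, against 2.42 to 3.26% and 6.60 to 8.12% in HCT116. For these 4 members no HEK293E library overlapped an HCT116 library of the same DROSHA form.

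**Figure D2:**
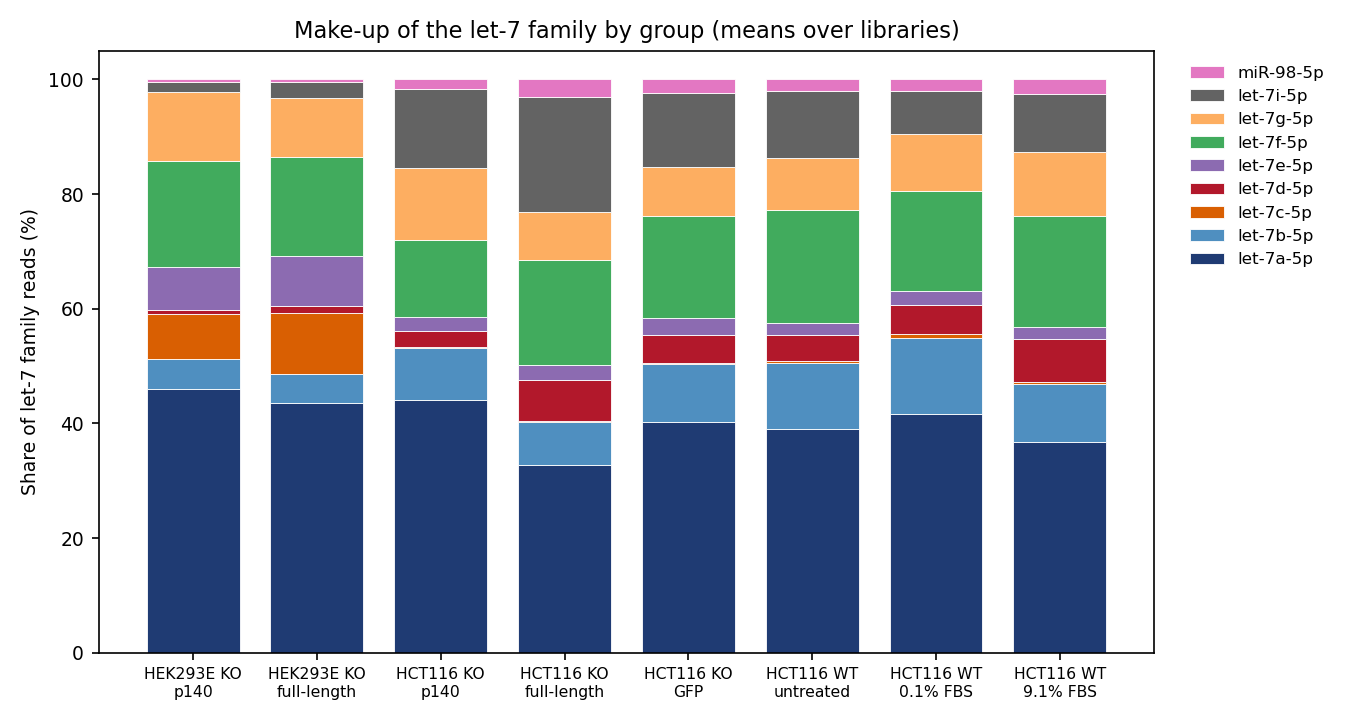
Share of the summed let-7 reads held by each member (%, mean over the libraries of a group; groups with 1 library are the knockout with GFP and untreated wild type). let-7a-5p takes 32.7 to 45.9% everywhere, let-7c-5p takes 7.93% and 10.7% in HEK293E with p140 and full-length DROSHA and under 1% in every HCT116 group, and let-7i-5p and let-7d-5p take less with p140 than with the full-length form in both lines.

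The first comparison asks what the family does when p140 replaces full-length DROSHA in HCT116 knockout cells. let-7d-5p, miR-98-5p, let-7i-5p and let-7f-5p fell, while let-7a-5p, let-7b-5p, let-7c-5p, let-7e-5p and let-7g-5p did not pass the test (edgeR's quasi-likelihood test, Benjamini-Hochberg adjusted p under 0.05 over 446 miRNAs). The 4 falls among 9 members stand beside a background of 59.6% of all miRNAs tested that were called, 31.2% lower and 28.5% higher. The median log2 fold change was -0.28 over the members and -0.11 over all miRNAs tested. Of the 9, 1 had a higher value at an unadjusted p under 0.05 (let-7g-5p), and DESeq2 called 2 higher. The members' values spread from -1.61 to 0.41.

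let-7d-5p, which sits with let-7a-1 and let-7f-1 in AL158152.2, had 1820.1, 1619.7 and 2385 CPM with p140, against 5251, 4609 and 6675 CPM with full-length DROSHA. Every p140 library lay below every full-length one, and let-7d-5p fell by 1.61 ± 0.19 on the log2 scale, or 3.04-fold (adjusted p = 0.00069, edgeR). The ± of a log2 fold change is a standard error, the absolute change divided by the square root of the test's F statistic. miR-98-5p, from HUWE1, had 970.3, 1050.4 and 1529 CPM with p140, against 1985, 2009.8 and 2936 CPM with full-length DROSHA. Its groups did not overlap either, and it fell by 1.07 ± 0.23 (adjusted p = 0.0074, edgeR). let-7i-5p, from AC048341.1, had 10133, 9542 and 9434 CPM with p140, against 15423, 14322 and 15826 CPM with full-length DROSHA. The p140 libraries lay within a narrow range well below the others, and it fell by 0.73 ± 0.12 (adjusted p = 0.0026, edgeR). let-7f-5p, which has 1 hairpin in AL158152.2 and another in HUWE1, had 9267, 8524 and 10783 CPM with p140, against 13409, 13444 and 14695 CPM with full-length DROSHA. It fell by 0.63 ± 0.11, without overlap (adjusted p = 0.0037, edgeR). These 4 kept their calls in every alternative processing tried and without any 1 library.

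let-7g-5p, from WDR82, stood the other way, with 8296, 8056 and 10691 CPM with p140, against 5929.5, 5487 and 7607 CPM with full-length DROSHA. Its groups did not overlap, and its log2 fold change was 0.41 ± 0.17 (adjusted p = 0.063, edgeR). let-7a-5p had 32671, 29565 and 31439 CPM with p140, against 24195, 22625 and 27426 CPM with full-length DROSHA, also without overlap, and a log2 fold change of 0.25 ± 0.13 (adjusted p = 0.12, edgeR). With the replicate number as a block both were called higher, let-7g-5p at 0.43 (adjusted p = 0.0014, edgeR) and let-7a-5p at 0.25 (adjusted p = 0.035, edgeR). They were also called with DESeq2, at 0.53 and 0.36, and on library totals, at 0.51 and 0.34. let-7b-5p, whose hairpin is exonic, was at 0.13 ± 0.22, let-7c-5p at -0.02 ± 0.27 and let-7e-5p at -0.28 ± 0.17, and the libraries of both groups overlapped for all 3. A scale set by the list of miRNAs made without DROSHA shifted the median of all miRNAs by -1.62 relative to the scale used (trimmed mean of M-values, TMM), and turned let-7a-5p, let-7b-5p and let-7g-5p to -1.39, -1.59 and -1.14. Directions here are therefore relative to the bulk of the reads, while the members' shares of family reads within each library do not depend on the scale. The listed miRNAs summed to 210408, 189301 and 70450.2 CPM with p140, against 49834, 45515 and 27438 CPM with full-length DROSHA, so replicate 3 lay well below the other p140 libraries. The summed colon markers above were also lower with p140, and the part of both in the members' values was not tested.

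Within the family, the share of let-7a-5p was 43.0 to 45.0% with p140, against 32.3 to 33.3% with full-length DROSHA, and that of let-7g-5p was 11.4 to 14.6%, against 7.86 to 9.25%. The share of let-7d-5p was 2.42 to 3.26% with p140, against 6.60 to 8.12%, and that of miR-98-5p 1.34 to 2.09%, against 2.65 to 3.57%. let-7i-5p held 12.9 to 14.3% with p140, against 19.2 to 20.6%, and let-7f-5p 12.8 to 14.7%, against 17.9 to 19.3%. None of these 6 shares overlapped between the groups. let-7a-5p and let-7f-5p thus moved apart, although they differ only by G12A and each has a hairpin in AL158152.2.

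**Figure D3:**
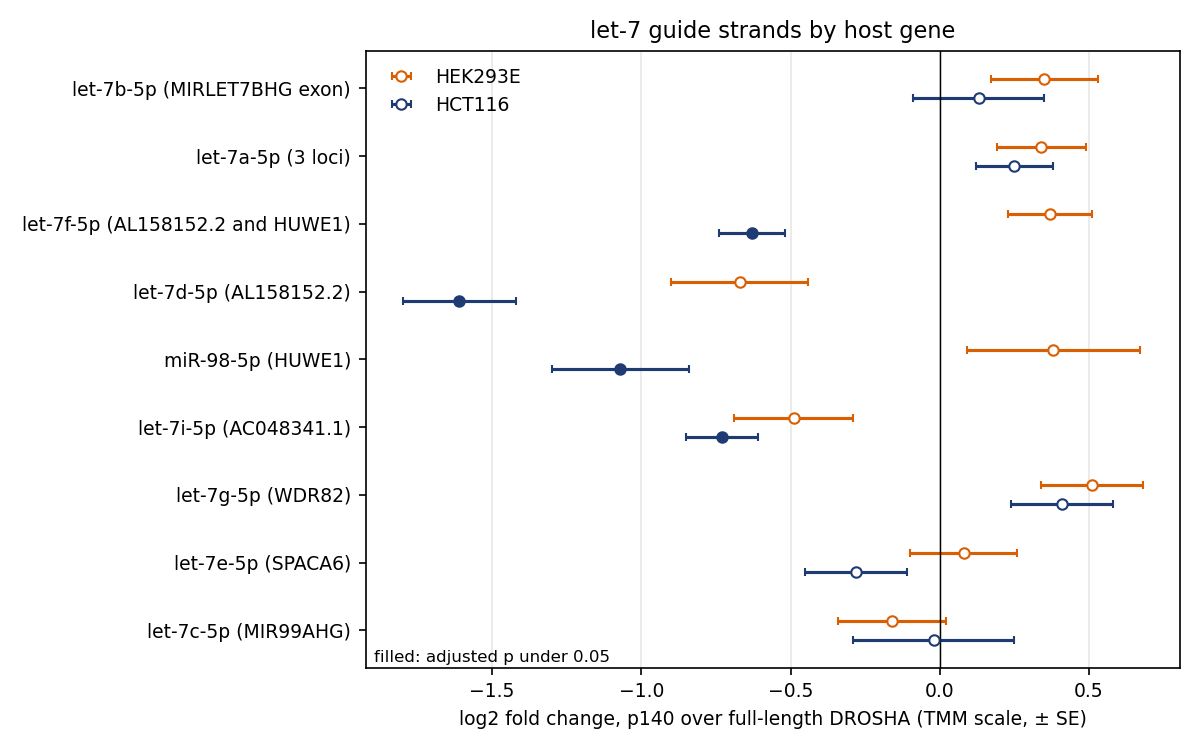
Log2 fold change of each guide strand, p140 over full-length DROSHA, with its standard error, in HEK293E (orange) and HCT116 (blue); members are grouped by host gene and filled points passed an adjusted p of 0.05. In HCT116 let-7d-5p, miR-98-5p, let-7i-5p and let-7f-5p are filled and lie at -1.61 to -0.63, and in HEK293E no point is filled.

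The passenger strands give values for single hairpins, except let-7a-3p, which let-7a-1 and let-7a-3 share. Of 11 passenger strands 10 were tested in HCT116, and 5 fell with p140 and 0 rose (edgeR; none was higher at an unadjusted p under 0.05). Of all miRNAs tested, 31.2% were called lower and 28.5% higher. let-7d-3p fell by 1.86 ± 0.20 (adjusted p = 0.0004), let-7i-3p fell by 1.19 ± 0.25 (adjusted p = 0.0076), miR-98-3p fell by 1.39 ± 0.36 (adjusted p = 0.013) and let-7e-3p fell by 1.23 ± 0.31 (adjusted p = 0.012, all edgeR). For let-7d, let-7i and mir-98 the guide of the same hairpin fell too. let-7e-5p itself was at -0.28, and let-7e-3p had 5 to 9 reads in the p140 libraries. Without p140 replicate 2, let-7e-3p (-1.08, adjusted p = 0.061) and miR-98-3p (-1.20, adjusted p = 0.052, edgeR) were no longer called.

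let-7f-5p can be followed at its separate hairpins through let-7f-1-3p (AL158152.2) and let-7f-2-3p (HUWE1). let-7f-1-3p had 2, 8 and 11 reads with p140, against 58, 69 and 110 reads with full-length DROSHA, and fell by 2.24 ± 0.53 (adjusted p = 0.01, edgeR). let-7f-2-3p had 24, 31 and 31 reads with p140, against 81, 75 and 43 reads with full-length DROSHA, and its log2 fold change was 0.09 ± 0.29 (adjusted p = 0.8, edgeR). let-7f-1-3p made up 7.69%, 20.5% and 26.2% of the reads of both strands with p140, against 41.7%, 47.9% and 71.9% with full-length DROSHA. The groups did not overlap, and an exact permutation test of 3 against 3 libraries could not go below p = 0.1. The sequence of let-7f-1-3p is given because it tells the hairpins apart (RefSeq, GRCh38.p14).
let-7f-1-3p: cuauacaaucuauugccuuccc
mir-98 lies 947 bases from let-7f-2 in the same HUWE1 intron, and miR-98-3p fell while let-7f-2-3p did not pass the test. The difference between them was not tested.

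**Figure D4:**
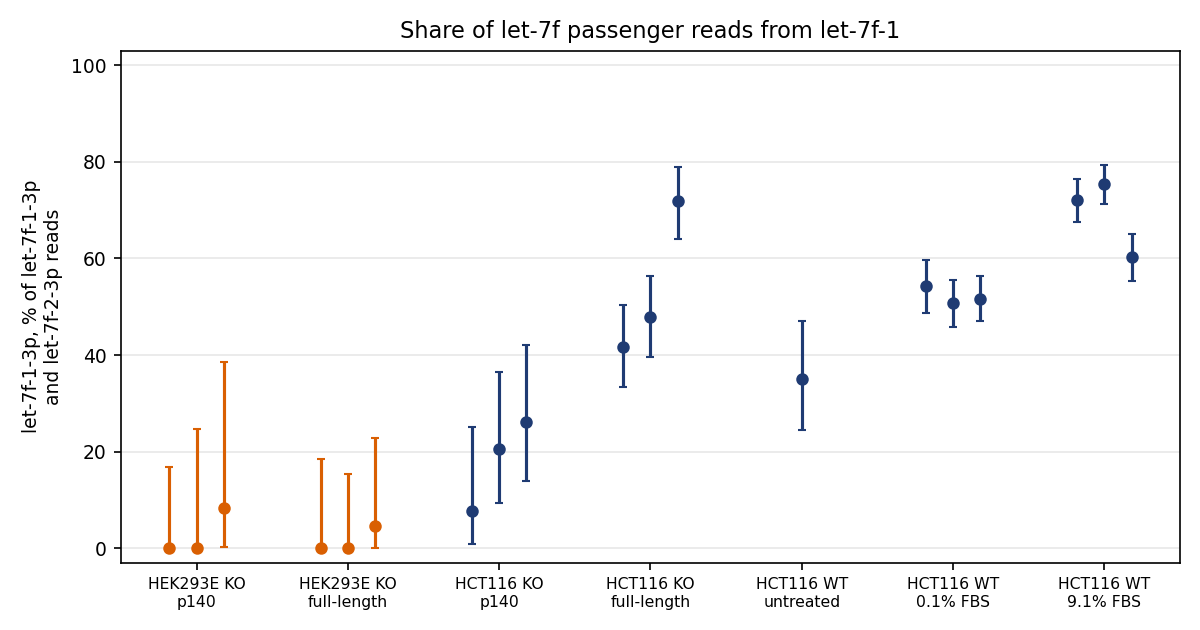
Share of let-7f-1-3p in the summed reads of let-7f-1-3p and let-7f-2-3p by library (%, points with exact Clopper-Pearson 95% intervals that cover counting error only; the knockout with GFP had 0 reads of both and is not drawn). The p140 libraries of HCT116 lie at 7.69 to 26.2%, below those with full-length DROSHA at 41.7 to 71.9%, and HEK293E libraries lie at 0 to 8.33%.

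miRNAs of the same primary transcripts had unlike values with p140 in HCT116. Beside let-7e in SPACA6, miR-99b-5p had 915, 838 and 755 CPM with p140, against 2787, 2668 and 1776 CPM with full-length DROSHA, and fell by 1.60 ± 0.20 (adjusted p = 0.00092, edgeR), and miR-99b-3p fell by 1.58 ± 0.28 (adjusted p = 0.0034, edgeR). miR-125a-5p, on the far side of let-7e, was at 0.39 ± 0.15 (adjusted p = 0.053, edgeR), and was called higher with the replicate block, at 0.40 (adjusted p = 0.0040, edgeR). let-7e-5p lay between them at -0.28 ± 0.17. miR-100-5p, from the transcript of let-7a-2, was at -0.28 ± 0.11 (adjusted p = 0.054, edgeR) and was called lower with the block, at -0.27 (adjusted p = 0.0065, edgeR). Of the 3 related miRNAs outside the family, miR-202-3p and miR-4500 were too rare to test in this comparison. miR-4458 shares the seed but is shorter and lies on chromosome 5.
miR-4458: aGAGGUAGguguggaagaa
It had 12, 10 and 8 reads with p140, against 8, 8 and 3 reads with full-length DROSHA, and rose by 1.94 ± 0.44 (adjusted p = 0.009, edgeR). On the scale of the miRNAs made without DROSHA its change was 0.25 (adjusted p = 0.87, edgeR).

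In HEK293E knockout cells the same exchange gave no call among the members with TMM scaling and no replicate block in edgeR. Of 9 members 0 fell and 0 rose at an adjusted p under 0.05, against 21.2% and 5.29% of the 416 miRNAs tested, 26.4% in either direction (edgeR), while 5 had an unadjusted p under 0.05 and DESeq2 called 1, let-7g-5p at 0.61 (adjusted p = 0.018). A joint fit of 18 libraries called let-7d-5p lower (-0.63, adjusted p = 0.037) and let-7g-5p higher (0.55, adjusted p = 0.036, edgeR). On library totals let-7d-5p was called lower (-0.75, adjusted p = 0.033, edgeR), and on the scale of the miRNAs made without DROSHA 4 members were called lower. Of the 416 miRNAs tested, 93 were called lower on library totals and 212 on the scale of the miRNAs made without DROSHA. The median log2 fold change was 0.34 over the members and -0.04 over all miRNAs. let-7d-5p had 215, 254 and 236 CPM with p140, against 401, 318 and 465 CPM with full-length DROSHA, without overlap, at -0.67 ± 0.23 (adjusted p = 0.06, edgeR). let-7i-5p had 607, 470.0 and 654 CPM with p140, against 874, 781 and 917 CPM with full-length DROSHA, without overlap, at -0.49 ± 0.20 (adjusted p = 0.099, edgeR). On the other side let-7g-5p had 3479, 4478 and 4427 CPM with p140, against 3233, 2623 and 3344 CPM with full-length DROSHA, without overlap, at 0.51 ± 0.17 (adjusted p = 0.052, edgeR). let-7f-5p had 5693, 6439 and 6707 CPM with p140, against 5213, 4825 and 5432 CPM with full-length DROSHA, without overlap, at 0.37 ± 0.14 (adjusted p = 0.083, edgeR).

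The replicate numbers paired the HEK293E libraries, which the fit above did not model, and with the number as a block 6 members were called. The share of all miRNAs called with the block is not given here, so these 6 have no background beside them. let-7d-5p fell by 0.67 (adjusted p = 0.0018) and let-7i-5p fell by 0.50 (adjusted p = 0.0059), and let-7g-5p rose by 0.51 (adjusted p = 0.00019), let-7f-5p by 0.37 (adjusted p = 0.0082), let-7b-5p by 0.36 (adjusted p = 0.022) and let-7a-5p by 0.35 (adjusted p = 0.010, all edgeR). On the scale of the miRNAs made without DROSHA, which shifted the median by -0.72, these 4 rises turned to -0.21, -0.35, -0.37 and -0.38. let-7c-5p was at -0.16 ± 0.18, let-7e-5p at 0.08 ± 0.18 and miR-98-5p, with 19 to 38 reads in the p140 libraries, at 0.38 ± 0.29, none of them called. Within the family let-7c-5p held 7.52 to 8.20% with p140, against 10.2 to 10.9%, and let-7d-5p 0.659 to 0.710%, against 1.22 to 1.40%, both without overlap. let-7i-5p held 1.29 to 2.01% with p140, against 2.76 to 3.0%, and let-7a-5p 45.1 to 46.7%, against 43.2 to 44.3%. Of the neighbours, miR-99b-5p was at -0.79 ± 0.24 (adjusted p = 0.035), miR-99b-3p at -0.80 ± 0.23 (adjusted p = 0.027) and miR-99a-5p, beside let-7c, at -0.70 ± 0.17 (adjusted p = 0.01, all edgeR), and all 3 fell, while miR-125a-5p was at 0.18 ± 0.18. The calls of both miR-99b strands were each lost without any of 4 single libraries, with adjusted p up to 0.11, and without replicate 3 (adjusted p = 0.14 for both), and that of miR-99b-3p with DESeq2 (-0.70, adjusted p = 0.082). The call of miR-99a-5p was lost without replicate 3 (-0.77, adjusted p = 0.11) and in the joint fit of 18 libraries (-0.66, adjusted p = 0.12, edgeR). Only 3 passenger strands could be tested, and none was called or had an unadjusted p under 0.05, where 26.4% of all miRNAs tested were called. The summed level of 6 blood cell miRNAs was 111, 281 and 203 CPM with p140, against 455, 953 and 652 CPM with full-length DROSHA, nearly all of it miR-486-5p, and its part in these values was not tested.

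The difference of the p140 effect between the lines was tested directly over the 12 rescue libraries. The fit did not model pairs of libraries by replicate number within a line. It was past the threshold for 2 members, both with the higher value in HEK293E, against 2.14% of 515 miRNAs with the higher value in HEK293E, 1.17% with the lower and 3.3% in all (edgeR). For let-7f-5p the log2 difference (HEK293E minus HCT116) was 0.94 ± 0.19 (adjusted p = 0.012, edgeR), where the separate fits gave 0.37 in HEK293E and -0.63 in HCT116. For miR-98-5p it was 1.38 ± 0.34 (adjusted p = 0.039, edgeR), where the separate fits gave 0.38 in HEK293E and -1.07 in HCT116. Both have a hairpin in HUWE1. The passenger of the HUWE1 hairpin of let-7f, let-7f-2-3p, was at 0.04 ± 0.54 (adjusted p = 1), that of the AL158152.2 hairpin, let-7f-1-3p, with 0 or 1 read in each HEK293E library, at 2.58 ± 2.16 (adjusted p = 0.58) and miR-98-3p at 1.46 ± 0.80 (adjusted p = 0.34, all edgeR). let-7d-5p was at 0.86 ± 0.28 (adjusted p = 0.12, edgeR), and let-7i-5p, lower with p140 in both lines, at 0.18 ± 0.21 (adjusted p = 0.72, edgeR). let-7d-5p was called in the joint fit of 18 libraries (1.01, adjusted p = 0.045) and without full-length replicate 3 of HEK293E (1.24, adjusted p = 0.041) or p140 replicate 3 of HCT116 (1.03, adjusted p = 0.031, edgeR). The differences of the other members lay between -0.21 and 0.29. The calls of let-7f-5p and miR-98-5p were both lost when any of 6 libraries was left out, namely p140 replicate 2 or 3 of HEK293E, p140 replicate 2 of HCT116 or full-length replicate 1, 2 or 3 of HCT116, and that of miR-98-5p also without p140 replicate 1 of HCT116. The differences themselves then lay between 0.88 and 0.95 for let-7f-5p and between 1.13 and 1.53 for miR-98-5p, with adjusted p between 0.052 and 0.15 (edgeR). On the scale of the miRNAs made without DROSHA they were 1.83 and 2.22 (adjusted p = 0.33 for both, edgeR). No miRNA tested was called on that scale. On library totals miR-98-5p was at 1.26 (adjusted p = 0.094, edgeR).

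Between the lines nearly every member differed. With full-length DROSHA, 8 of 9 members were lower in HEK293E than in HCT116, against 27.4% of the 515 miRNAs tested, and let-7c-5p was higher, against 34.6% (61.9% in either direction, edgeR). The median log2 fold change was -2.44 over the members and 0.16 over all miRNAs. let-7i-5p had 874, 781 and 917 CPM in HEK293E, against 15423, 14322 and 15826 CPM in HCT116, and was 35.8-fold lower (log2 fold change -5.16 ± 0.17, adjusted p = 1.3e-12, edgeR). miR-98-5p had 111, 159 and 125 CPM in HEK293E, against 1985, 2009.8 and 2936 CPM in HCT116, and was at -5.14 ± 0.26 (adjusted p = 1.9e-10, edgeR). let-7d-5p had 401, 318 and 465 CPM in HEK293E, against 5251, 4609 and 6675 CPM in HCT116, and was at -4.80 ± 0.22 (adjusted p = 6e-11, edgeR). These 3 had the lowest values of the 9. Folds between the lines are larger on the TMM scale than in CPM for lower members and smaller for higher ones, because library totals shifted the median of all miRNAs by 1.01, and on library totals these 3 were at -4.15, -4.13 and -3.80. Next were let-7b-5p at -2.93, let-7f-5p at -2.44, let-7g-5p at -2.06 and let-7a-5p at -1.93, none with overlap. let-7e-5p was at -0.59 ± 0.18 (adjusted p = 0.01, edgeR) with overlapping libraries, and its direction turned to 0.41 on library totals. Its call was lost without full-length replicate 1 (-0.56, adjusted p = 0.067) or 3 (-0.41, adjusted p = 0.14, edgeR) of HCT116.

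let-7c-5p had 3322, 2670.2 and 3618 CPM in HEK293E, against 148, 133 and 178 CPM in HCT116, and was 10.4-fold higher (log2 fold change 3.38 ± 0.23, adjusted p = 7.3e-09, edgeR), and at 4.39 on library totals. Its cluster mate miR-99a-5p had 2965, 4525 and 3448 CPM in HEK293E, against 3.78, 9.16 and 27.5 CPM in HCT116, and its log2 fold change was 7.06 ± 0.42 (adjusted p = 1.3e-09, edgeR). The reads of let-7c-5p in HCT116 were few beside those of let-7a-5p, from which it differs by A19G. For every 100 reads of let-7a-5p there were 16.3 to 25.1 of let-7c-5p in the rescued HEK293E libraries, against 0.376 to 0.649 in the rescued HCT116 libraries. How many of the HCT116 reads are misread let-7a-5p was not tested. miR-100-5p, from the transcript of let-7a-2, had 196, 249 and 188 CPM in HEK293E, against 12076, 12281 and 10238 CPM in HCT116, at -6.80 ± 0.21 (adjusted p = 4e-13, edgeR). let-7a-2-3p had 0, 1 and 0 reads in HEK293E, against 104, 66 and 99 in HCT116, and let-7f-1-3p had 0, 0 and 1, against 58, 69 and 110. The passenger strands of let-7a-2 and let-7f-1 were therefore at or near 0 reads in HEK293E, while let-7f-2-3p had 18, 22 and 21 reads there. miR-125a-5p was at -0.02 ± 0.18 and miR-99b-5p at -0.15 ± 0.25, neither called, and their direction turned on library totals, to 0.99 and 0.89.

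With p140 in both lines, 7 members were lower in HEK293E (background 27.8%) and let-7c-5p was higher (background 27.6%, and 55.3% in either direction, edgeR). let-7i-5p was at -4.98, let-7d-5p at -3.94, miR-98-5p at -3.76, let-7b-5p at -2.75, let-7g-5p at -2.03, let-7a-5p at -1.90 and let-7f-5p at -1.50. let-7c-5p was at 3.17. let-7e-5p was at -0.31 ± 0.18 (adjusted p = 0.16, edgeR), and at 0.60 on library totals (adjusted p = 0.012, edgeR), which shifted the median by 0.90. These libraries also enter the interaction above.

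Serum withdrawal was compared in wild-type HCT116 cells, 0.1% against 9.1% FBS for 72 hr. On the TMM scale 6 of 9 members rose and 0 fell, against 25.5% and 20.3% of the 577 miRNAs tested and 45.8% in either direction (edgeR; DESeq2 also called 0 lower, and none was lower at an unadjusted p under 0.05). The median log2 fold change was 0.36 over the members and -0.03 over all miRNAs. let-7c-5p had 622, 633 and 479 CPM in 0.1% FBS, against 333, 465 and 290.0 CPM in 9.1% FBS, and rose by 1.07 ± 0.20 on the log2 scale (adjusted p = 0.0031, edgeR). let-7b-5p had 13207, 14265 and 10690.1 CPM in 0.1% FBS, against 9387, 9430.1 and 7652 CPM in 9.1% FBS, and rose by 0.93 ± 0.14 (adjusted p = 0.00093, edgeR). Neither overlapped between the groups. let-7e-5p rose by 0.80 ± 0.12 (adjusted p = 0.0013) and let-7a-5p by 0.71 ± 0.10 (adjusted p = 0.00069, edgeR), with 38369, 43171 and 37494 CPM of let-7a-5p in 0.1% FBS, against 33056, 33285 and 30401 CPM in 9.1% FBS. let-7f-5p and let-7g-5p were called at 0.36 ± 0.09 (adjusted p = 0.011) and 0.36 ± 0.10 (adjusted p = 0.015, edgeR), but their CPM overlapped between the groups. Without replicate 1 of 9.1% FBS they were at 0.30 (adjusted p = 0.054) and 0.28 (adjusted p = 0.083, edgeR) and no longer called. In the joint fit of 18 libraries both were at 0.18 (adjusted p = 0.4 and 0.51, edgeR), not called.

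Several of these directions turned with the scale. Library totals shifted the median of all miRNAs by -0.41 and the list made without DROSHA by -0.64. let-7a-5p, let-7b-5p, let-7c-5p and let-7e-5p rose on library totals too, at 0.30, 0.53, 0.67 and 0.39, and stood at 0.06, 0.28, 0.42 and 0.16 on the list's scale, not called. let-7f-5p turned to -0.04 and -0.28, and let-7g-5p to -0.05 and -0.28. let-7d-5p had 4641, 5275 and 4856 CPM in 0.1% FBS, against 6717, 6655 and 6265 CPM in 9.1% FBS, without overlap. It was at 0.00 ± 0.10 on the TMM scale, and was called lower on library totals (-0.41, adjusted p = 0.0063) and on the list's scale (-0.64, adjusted p = 0.038, edgeR). let-7i-5p was at 0.12 ± 0.11 and miR-98-5p at 0.18 ± 0.13 on the TMM scale, not called, and at -0.29 and -0.23 on library totals, where let-7i-5p was called lower (adjusted p = 0.05, edgeR). With the replicate block miR-98-5p was called at 0.17 (adjusted p = 0.046, edgeR).

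**Figure D5:**
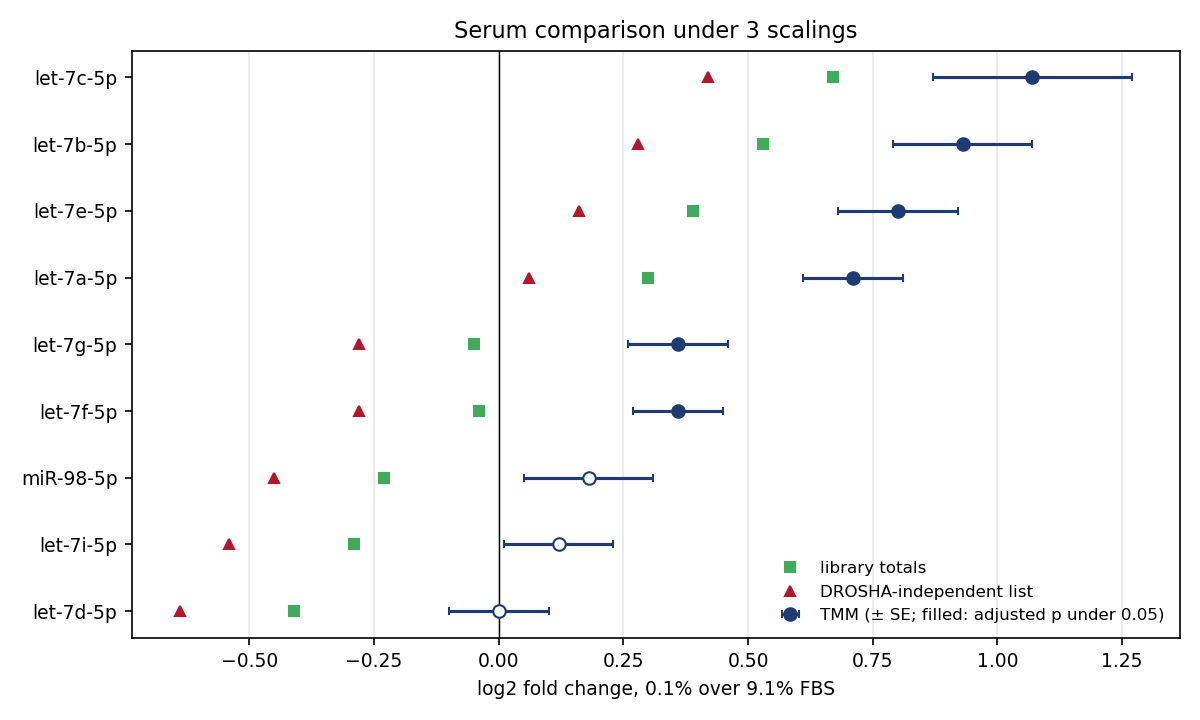
Log2 fold change of each guide strand, 0.1% over 9.1% FBS, on the TMM scale (circles with standard error, filled where the adjusted p is under 0.05), on library totals (squares) and on the scale of the miRNAs made without DROSHA (triangles). let-7c-5p stands highest and let-7d-5p lowest on each scale, let-7f-5p and let-7g-5p nearly coincide, and these, miR-98-5p, let-7i-5p and let-7d-5p lie below 0 on library totals and on the list's scale and at about 0 or above it on the TMM scale.

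Shares within the family do not depend on the scale. let-7a-5p held 41.3 to 42.0% of family reads in 0.1% FBS, against 35.7 to 37.5% in 9.1% FBS, and let-7b-5p 11.8 to 14.3%, against 8.99 to 10.6%. let-7d-5p held 5.02 to 5.35% in 0.1% FBS, against 7.36 to 7.62%, and let-7i-5p 7.05 to 8.14%, against 8.95 to 11.6%. let-7f-5p held 16.9 to 17.6% in 0.1% FBS, against 19.1 to 19.7%. None of these 5 overlapped between the groups. The 2 hairpins of let-7f also shifted, with let-7f-1-3p at 54.2%, 50.7% and 51.6% of the let-7f passenger reads in 0.1% FBS, against 72.1%, 75.4% and 60.3% in 9.1% FBS. let-7f-2-3p rose by 0.68 ± 0.17 (adjusted p = 0.011, edgeR), and let-7f-1-3p was at -0.38 ± 0.17 (adjusted p = 0.094, edgeR) and called lower with the replicate block, at -0.38 (adjusted p = 0.0036, edgeR).

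Of 10 passenger strands tested 4 rose and 0 fell on the TMM scale, against 25.5% and 20.3% of all miRNAs tested (edgeR; let-7f-1-3p was lower at an unadjusted p of 0.049). On library totals 0 rose, and let-7d-3p (-0.70, adjusted p = 0.0025) and let-7f-1-3p (-0.79, adjusted p = 0.0049, edgeR) fell. Both also fell on the list's scale, at -0.93 (adjusted p = 0.0049) and -1.01 (adjusted p = 0.0053, edgeR). Among all miRNAs tested, 73 rose and 248 fell on library totals, and 22 rose and 241 fell on the list's scale. Besides let-7f-2-3p the rises on the TMM scale were those of let-7b-3p at 1.05 ± 0.31, let-7g-3p at 0.76 ± 0.22 and let-7a-2-3p at 0.60 ± 0.14, with adjusted p of 0.023, 0.023 and 0.0089 (edgeR). Of these 4 calls, 3 (all but let-7a-2-3p) were lost without 1 or more single libraries, with adjusted p up to 0.099, and 3 (all but let-7b-3p) in the joint fit, with adjusted p of 0.13 to 0.24. Of 7 cluster mates tested 5 rose on the TMM scale, against 25.5% of all miRNAs tested. Of these 5, 2 (miR-99a-5p and miR-100-5p) also rose on library totals and 0 on the list's scale (edgeR). miR-100-5p, beside let-7a-2, had 27924, 25974 and 23067 CPM in 0.1% FBS, against 19044, 19613 and 14996 CPM in 9.1% FBS, and rose by 0.93 ± 0.13 (adjusted p = 0.00075, edgeR). On library totals it was at 0.52 (adjusted p = 0.0086), miR-99a-5p at 0.85 (adjusted p = 0.035), miR-125a-5p at 0.47 (adjusted p = 0.067), miR-100-3p at 0.52 (adjusted p = 0.16) and miR-125a-3p at 0.32 (adjusted p = 0.33, all edgeR). On the TMM scale miR-99a-5p, beside let-7c, rose by 1.25 ± 0.29 and miR-125a-5p, beside let-7e, by 0.87 ± 0.19 (adjusted p = 0.0087 and 0.0055, edgeR), while miR-99b-5p was at 0.13 ± 0.15. The summed level of 6 blood cell miRNAs was 187 to 210.5 CPM in 0.1% FBS, against 55.6 to 76.8 CPM in 9.1% FBS. Most of the difference lay in miR-486-5p (62.4 to 99.6 CPM, against 9.86 to 12.6 CPM) and in both miR-142 strands. miR-223-3p (0.709 to 2.06 CPM, against 3.11 to 9.09 CPM) and miR-150-5p (1.77 to 3.96 CPM, against 5.71 to 7.49 CPM) went the other way. The part of these miRNAs in the family's values was not tested.

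The rescue with full-length DROSHA was also set against wild-type HCT116 cells in 9.1% FBS. The groups differ in the knockout, the rescue and the levels of miR-200c-3p and miR-141-3p noted above. A serum level and a culture time are labelled only for the wild-type libraries, so culture conditions may differ as well. These differences cannot be told apart. Of 9 members 5 were lower in the rescued cells (background 29.7% of 566 miRNAs) and 1 was higher (background 28.8%, and 58.5% in either direction, edgeR). The median was -0.30 over the members and -0.05 over all miRNAs. let-7i-5p had 15423, 14322 and 15826 CPM in the rescued cells, against 8316, 8012 and 9837 CPM in wild type, and was higher by 0.80 ± 0.12 (adjusted p = 0.0003, edgeR). Its passenger let-7i-3p was also higher, at 0.52 ± 0.17 (adjusted p = 0.022, edgeR). let-7c-5p had 148, 133 and 178 CPM in the rescued cells, against 333, 465 and 290.0 CPM in wild type, at -1.25 ± 0.21 (adjusted p = 0.00058, edgeR). let-7b-5p was at -0.65 ± 0.16, let-7g-5p at -0.63 ± 0.13, let-7a-5p at -0.38 ± 0.10 and let-7f-5p at -0.30 ± 0.10, with adjusted p of 0.0056, 0.0019, 0.0091 and 0.026 (edgeR). The call of let-7f-5p was lost with DESeq2 (-0.27, adjusted p = 0.079) and without full-length replicate 1 or 2 or wild-type replicate 2 (adjusted p = 0.075 to 0.078, edgeR). let-7d-5p was at -0.25 ± 0.13 (adjusted p = 0.13, edgeR), and was called with the replicate block, at -0.26 (adjusted p = 0.034, edgeR). That block pairs rescued and wild-type libraries by number, and the labels do not say whether same-numbered libraries were handled together. let-7e-5p was at 0.13 ± 0.15 and miR-98-5p at 0.02 ± 0.16, not called. let-7f-1-3p was at -0.72 ± 0.26 (adjusted p = 0.034), miR-100-5p at -0.63 ± 0.14 (adjusted p = 0.0034) and miR-99b-3p at 1.11 ± 0.22 (adjusted p = 0.0014, all edgeR). The calls of let-7i-3p and let-7f-1-3p were each lost without any of 4 single libraries, with adjusted p up to 0.11. That of let-7i-3p was also lost with no count filter (0.26, adjusted p = 0.43) and in the joint fit (0.27, adjusted p = 0.33, edgeR). On the scale of the miRNAs made without DROSHA, which shifted the median by -1.98, all 9 members were lower, with let-7i-5p at -1.18. Of all 566 miRNAs tested, 441 were called lower on that scale and 18 higher.

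The knockout with GFP and untreated wild type are 1 library each, so their values have no replicate check and no test. All 9 members were lower in the knockout in CPM, as were 95.2% of 168 miRNAs that had a read in the knockout and 100 or more in wild type. The family summed to 13581 CPM in the knockout (520 reads), against 91558 CPM in wild type (78434 reads), 6.74-fold lower with a 95% counting interval of 6.18 to 7.36. The median log2 ratio was -2.71 over the members and -2.55 over the 168. let-7a-5p had 209 reads in the knockout, against 30565 in wild type, and was 6.54-fold lower (5.70 to 7.53). let-7e-5p, with 16 reads in the knockout, was 4.74-fold lower (2.91 to 8.31), and let-7b-5p, with 53 reads, 7.68-fold lower (5.86 to 10.3). let-7c-5p had 1 read in the knockout, against 225 in wild type, a ratio of 10.1-fold with an interval of 1.79 to 399. On the scale of the miRNAs made without DROSHA the family was 371-fold lower.

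Within the knockout's let-7 reads, the members' shares were within counting error of those in wild type. This library also had 2664 CPM of miR-200c-3p and 1384 CPM of miR-141-3p, more than any rescued HCT116 library. The source of its let-7 reads was not tested. let-7a-5p held 40.2% of family reads in the knockout (exact Clopper-Pearson 95% interval 35.9 to 44.5), against 39.0% in wild type (38.6 to 39.3). let-7f-5p held 17.7% (14.5 to 21.2), against 19.7% (19.4 to 20.0), and let-7i-5p 12.9% (10.1 to 16.1), against 11.6% (11.4 to 11.8). let-7d-5p held 4.81% (3.14 to 7.02), against 4.52% (4.37 to 4.67), and let-7g-5p 8.65% (6.38 to 11.4), against 9.11% (8.91 to 9.32). The intervals overlapped for all 9 members. They cover counting error only, since reads are not independent molecules, and the knockout's 520 reads could not show differences smaller than these intervals.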

How the data were processed

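Small RNA was sequenced from 20 libraries, made per the labels' protocols from total RNA by size selection and ligation of randomized adaptors. Reads were trimmed, mapped and counted with cutadapt, STAR and bedtools on hg38, per the submitters' processing notes, with no version or mapping rule stated. The authors deposited raw read counts per mature miRNA and hairpin, 2813 entries for 2588 mature miRNAs, and 167 of these have several entries. Of such copies the one with the highest total was kept. Spike-ins named in the protocol are not among the entries, so no absolute scale was used.

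The members and all lists were chosen with earlier results of these data known. Levels are CPM of a library's total. Differences were tested with edgeR 4.0.16 (R 4.3.3): TMM scaling, a filter at a minimum count of 10, the quasi-likelihood F test, and Benjamini-Hochberg adjustment over all miRNAs tested, with a threshold of 0.05. Each of the 7 comparisons used the libraries of its groups, and line contrasts and the interaction used all 12 rescue libraries. Members are all named; other miRNAs are named where they share a hairpin, transcript or seed with a member, or are nearest in pattern among miRNAs averaging at least 100 CPM. The single libraries of knockout with GFP and untreated wild type have counting intervals and no test. The code was tested on simulated data.

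Alternatives were DESeq2 1.42.0, no count filter, scaling to 22 miRNAs reported to be made without DROSHA, the lowest hairpin copy, a joint fit of 18 libraries, the replicate number as a block, leaving out each library, leaving out replicate 3, and, added after seeing the data, scaling to library totals. Same-numbered libraries deviated together in both p140 comparisons (correlations 0.18 to 0.54) and in the serum comparison (0.28 to 0.73). They also did so between rescue and wild type (0.13 to 0.40), so the numbers were taken as pairs in these comparisons. Between the lines they were not (-0.27 to 0.20). The main fits had no term for the pairs. Only the replicate block modelled them, so adjusted p-values given without mention of the block are unpaired.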

Additional observations from a re-analysis of the deposited data

Results flagged for a closer look

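For 2 members the effect of p140 differed between the lines in a test of the difference itself. That test did not model pairs of libraries by replicate number within a line. The log2 effect of p140 against full-length DROSHA in HEK293E minus that in HCT116 was 0.94 for let-7f-5p and 1.38 for miR-98-5p (adjusted p = 0.012 and 0.039, edgeR, 3 libraries a group), where 3.3% of all 515 miRNAs tested passed. Neither was called on the scale of the miRNAs made without DROSHA (adjusted p = 0.33 for both, edgeR), where no miRNA tested was called. Both calls were also lost when any of 6 of the 12 libraries was left out (adjusted p between 0.052 and 0.15, edgeR). In HCT116 all 3 p140 libraries lay below all 3 full-length libraries for both members. In HEK293E the p140 libraries of let-7f-5p all lay above the full-length ones, and those of miR-98-5p overlapped them.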

How the results depend on the processing

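The 4 falls with p140 in HCT116, and the 7 lower members and let-7c-5p between the lines, were called under every alternative, except let-7f-5p between the lines with p140 on the scale of the list made without DROSHA (-1.16, adjusted p = 0.065, edgeR). Over the members' fold changes, 804 values under alternatives kept direction and side of the threshold, 40 newly passed it, 32 no longer did and 60 changed direction. Causes were not tested. Depth limits miR-98-5p in HEK293E, let-7c-5p in HCT116, most passenger strands and the knockout with GFP. The mapping rule bears on members that differ at 1 base.

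Counts of members called moved as follows. The share of all miRNAs called is not given for the joint fit, the replicate block or fits with libraries left out. On the list's scale 212 of all miRNAs tested were called lower and 4 higher with p140 in HEK293E. For serum these were 241 and 22. With p140 in HCT116, 0 higher became 2 with DESeq2, 2 on library totals, 1 with the lowest hairpin copy, 2 with the replicate block and 0 to 2 when 1 library or replicate 3 was left out. With p140 in HEK293E, 0 lower became 4 on the list's scale, 1 on library totals, 1 in the joint fit, 2 with the replicate block and 0 to 1 with libraries left out, and 0 higher became 1 with DESeq2, 1 in the joint fit, 4 with the replicate block and 0 to 3 with libraries left out. For serum, 0 lower became 1 on the list's scale and 2 on library totals, and 6 higher became 0 on the list's scale, 4 on library totals, 4 in the joint fit, 7 with the replicate block and 4 to 7 with libraries left out. Between the lines with p140, 1 higher became 2 on library totals. Between rescue and wild type, 5 lower and 1 higher became 9 and 0 on the list's scale. Of all miRNAs tested, 441 were called lower there and 18 higher. In the interaction, 2 higher became 0 on the list's scale, 1 on library totals, 3 in the joint fit and 0 to 3 with libraries left out. On the list's scale no miRNA tested was called in the interaction. Beside the values in the report, the replicate block changed no call of a member or named neighbour. Between the lines, where numbers did not pair libraries, the block changed no call either. There and in the interaction the block gave both lines the same replicate effects, so pairs within a line were not modelled.

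Changes of direction (log2) were these. With no count filter, let-7a-5p, let-7b-5p and let-7f-2-3p with p140 in HCT116 were at -0.05, -0.20 and -0.23, let-7d-5p for serum at 0.05, let-7e-5p and miR-98-5p between rescue and wild type at -0.13 and -0.25, and let-7c-5p in the interaction at 0.04. On the list's scale, with p140 in HCT116 let-7a-5p, let-7b-5p, let-7g-5p, let-7f-2-3p and miR-125a-5p were at -1.39, -1.59, -1.14, -1.45 and -1.15. With p140 in HEK293E let-7a-5p, let-7b-5p, let-7e-5p, let-7f-5p, let-7g-5p, miR-98-5p and miR-125a-5p were there at -0.38, -0.37, -0.64, -0.35, -0.21, -0.37 and -0.57. For serum let-7f-5p, let-7g-5p, let-7i-5p, miR-98-5p, let-7a-2-3p and miR-99b-5p were there at -0.28, -0.28, -0.54, -0.45, -0.03 and -0.50. On that scale let-7e-5p between the lines with p140 was at 0.05, let-7e-5p, let-7i-5p, miR-98-5p, let-7i-3p and miR-99b-3p between rescue and wild type at -1.77, -1.18, -1.88, -1.46 and -0.91, and let-7c-5p in the interaction at 0.69. On library totals, let-7c-5p with p140 in HCT116 was at 0.08, let-7e-5p in HEK293E at 0.0, and for serum let-7f-5p, let-7g-5p, let-7i-5p, miR-98-5p and miR-99b-5p were at -0.04, -0.05, -0.29, -0.23 and -0.28. There let-7e-5p, miR-99b-5p and miR-125a-5p between the lines with full-length DROSHA were at 0.41, 0.89 and 0.99, let-7e-5p with p140 at 0.60, and let-7a-5p and let-7g-5p in the interaction at -0.07 and -0.08. With DESeq2 let-7c-5p in HCT116 was at 0.09 and miR-125a-5p between the lines at 0.06, and with the lowest copy let-7c-5p was at 0.01. In the joint fit let-7i-5p, miR-98-5p and miR-99b-5p for serum were at -0.07, 0.0 and -0.05, and let-7e-5p and miR-98-5p between rescue and wild type at -0.11 and -0.23.

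With libraries left out, values that changed direction ranged as follows. In HCT116 with p140, let-7b-5p ranged over -0.12 to 0.23, let-7c-5p over -0.25 to 0.19 and let-7f-2-3p over -0.24 to 0.22. In HEK293E, let-7c-5p ranged over -0.32 to 0.05, let-7e-5p over -0.07 to 0.27 and miR-125a-5p over -0.01 to 0.34. For serum, let-7d-5p ranged over -0.04 to 0.03 and miR-99b-5p over -0.02 to 0.19. Between the lines, miR-99b-5p ranged over -0.51 to 0.01 and miR-125a-5p over -0.18 to 0.07. Between rescue and wild type, let-7e-5p ranged over -0.09 to 0.19 and miR-98-5p over -0.18 to 0.07. In the interaction, let-7a-5p ranged over -0.07 to 0.35, let-7c-5p over -0.36 to 0.13 and let-7g-5p over -0.11 to 0.34.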

Other observations

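The passenger strands of let-7a tell let-7a-2 from the other 2 hairpins of let-7a-5p. let-7a-2-3p made up 5.20%, 7.64% and 11.6% of let-7a passenger reads in HCT116 with p140, against 15.6%, 9.30% and 17.0% with full-length DROSHA, and the groups overlapped. It made up 24.3%, 22.1% and 23.9% in 0.1% FBS, against 18.8%, 18.2% and 18.2% in 9.1% FBS, without overlap. In HEK293E it had 0 reads beside 258 of let-7a-3p with p140, and 1 read beside 332 with full-length DROSHA.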
